A study of Mus musculus with 6 samples.

Results

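The mRNA levels of the tetraspanin superfamily were examined in MB21, a medulloblastoma cell line of the mouse that carries a mutant Ptch; the product of this gene holds the hedgehog pathway in check. Tetraspanins are small membrane proteins with a short and a long extracellular loop. They bind each other and many partners, among them integrins, immunoglobulin-domain proteins and the sheddase ADAM10, and so sort these partners into membrane microdomains, endosomes and extracellular vesicles. In neural tissue they are known for roles in the trafficking of receptors, in adhesion and in myelin. The family was taken as 31 genes by symbol: 20 with a Tspan name and 11 with older names (Cd9, Cd37, Cd53, Cd63, Cd81, Cd82, Cd151, Upk1a, Upk1b, Prph2 and Rom1). All 31 were matched to an Ensembl identifier, of 55416 in the table. The family was chosen because its Tspan-named genes were higher in the treated cells, so the differences between groups given here for its members are a description and support nothing.

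Treated cells received DS-1-38 (DS38), a derivative of benzarone, at 10 uM for 1 day (3 libraries), and control cells received the vehicle DMSO (3 libraries). Both groups were the same Ptch-mutant line, grown non-adherently in DMEM/F12 with B27. The series' design text names 5 days, whereas its title, the sample titles and the treatment protocol give 1 day. The labels do not say whether replicates were separate cultures, so the spread between them may be technical. Libraries held 60434089 to 84044428 counts in DS38 and 38840296 to 50014681 in DMSO, so every DS38 library was deeper. Of 8 granule neuron progenitor markers all were measured, at a summed 2013 to 2040.1 CPM (counts scaled to library size) in DS38 and 2024 to 2092 in DMSO, with Zic1 and Atoh1 the most abundant. These near-equal sums hold changes both ways, since 2 of the 8 rose and 5 fell, against 12.9% and 11.7% of all genes tested. Atoh1 rose by 0.33 ± 0.028 on the log2 scale and Neurod1 fell by 0.37 ± 0.036 (± SE, with edgeR adjusted p = 3.56e-08 and 1.88e-07). Barhl1 rose by 0.27 ± 0.030, while Zic1, Zic2, Gli1 and Gli2 fell by 0.096 ± 0.030, 0.14 ± 0.029, 0.15 ± 0.035 and 0.16 ± 0.034. Pax6 did not pass (edgeR adjusted p = 0.0684).

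Of the 31 members, 19 averaged at least 1 CPM in a group, and 24 passed the filter on low counts. Cd63 stood far above the rest. Of the 24 members tested, 12 were past the threshold (edgeR adjusted p under 0.05 over 17679 genes) and higher in DS38, where 12.9% of all genes tested were. None was lower by edgeR, where 11.7% of all genes were, and 0 were lower at an unadjusted p under 0.05, by DESeq2 or by limma-voom. Those 12 were Cd63, Cd151 and 10 Tspan-named genes, of 16 Tspan-named genes tested. The median log2 fold change of the 24 was 0.17, against 0.0036 over all genes tested, and 23 of 24 were above 0, against 50.8% of all genes. Of these 24, Tspan1, Tspan32 and Upk1a reached the filter level in all 3 DS38 libraries but not in all 3 DMSO libraries. Their place in these figures rests on the DS38 side, and all 3 were above 0. A filter of 5 CPM in 3 libraries, which none of them reached, gave a member median of 0.16. In 15 of the 24 every DS38 library lay above every DMSO library, against 20.7% of all genes, and in 0 every DS38 library lay below, against 17.9%. Against the DMSO mean the median member stood at 0.18, 0.19 and 0.14 on the log2 scale in the 3 DS38 libraries and at -0.0048, -0.030 and 0.032 in the 3 DMSO libraries. Since the family was selected on this contrast, nothing is read from these shares. Under scaling by library size alone, 14 members were past the threshold and higher and 0 lower, while over all genes 3294 were higher and 1543 lower, against 2272 and 2068 with TMM scaling.

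Levels between genes were compared per length, as FPKM (TMM-normalized CPM divided by the deposited gene length in kilobases). The lysosomal and exosomal tetraspanin Cd63 was at 229 ± 5.46 FPKM in DS38 and 179.9 ± 2.93 in DMSO (SD, n = 3 each), and ranked 148 of 17679 tested genes in DMSO. It made up 41.6% of the summed FPKM of the family in DS38 and 38.0% in DMSO. Next came Cd81 (49.0 ± 0.704 FPKM in DS38 and 46.5 ± 1.68 in DMSO), a partner of immunoglobulin-domain proteins, and Cd9 (46.4 ± 0.701 in DS38 and 45.1 ± 0.937 in DMSO), which acts with Cd81 and is needed for fusion of egg and sperm. Tspan3, Tspan6, Tspan31 and Tspan14 followed, at 20.5 to 42.1 FPKM in DS38 and 18.9 to 39.4 in DMSO. Tspan9, Tspan5, Tspan13, Cd151, Tspan18 and Tspan17 were at 10.7 to 16.7 FPKM in DS38 and 7.72 to 14.2 in DMSO. Below them lay Tspan4, Tspan7, Tspan15, Tspan33, Rom1 and Cd37, the last at 0.429 ± 0.105 FPKM in DS38 and 0.325 ± 0.0119 in DMSO. In DMSO the ranges of neighbours in this order overlapped for Cd81 and Cd9, Tspan13 and Cd151, Tspan4 and Tspan7, and Tspan33 and Rom1. In DS38 they overlapped for Tspan5 and Tspan13, Tspan13 and Cd151, Tspan18 and Tspan17, and Tspan33 and Rom1. Without division by length the order was another: only 6 of the 24 tested members kept their rank.

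**Figure D1:**
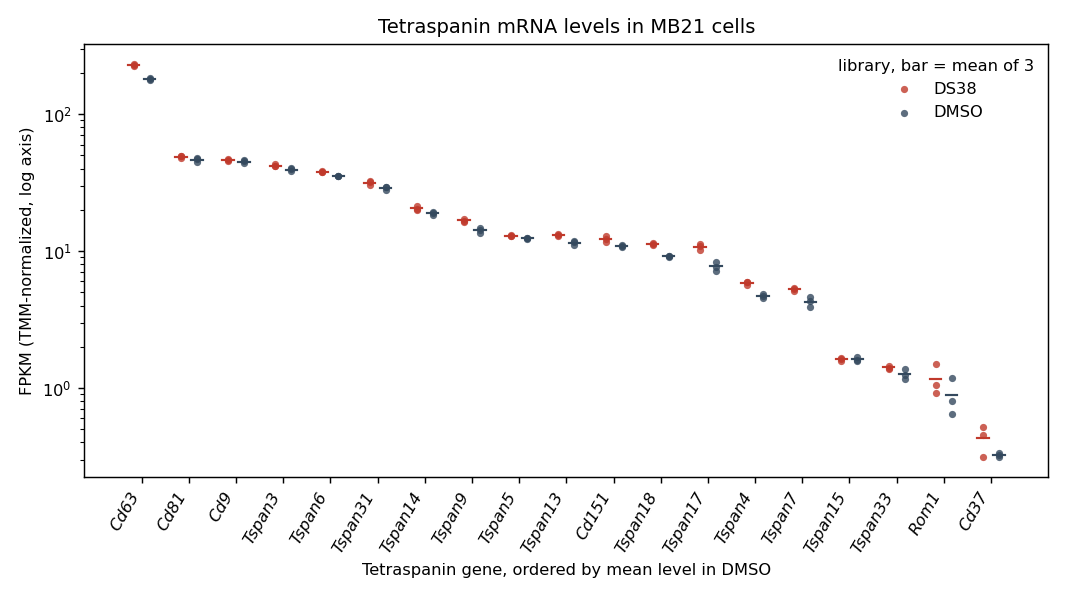
Level of each of the 19 tetraspanin genes with a mean of at least 1 CPM in a group, in FPKM on a log axis, ordered by the DMSO mean; points are libraries (3 DS38, 3 DMSO) and bars are group means. Cd63 stands at 229 FPKM in DS38 and 179.9 in DMSO, and Cd37 is the lowest, at 0.429 in DS38 and 0.325 in DMSO.

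The summed level of the whole family was 549.8 ± 9.48 FPKM in DS38 and 473 ± 8.73 in DMSO (SD, n = 3 each). Cd63 accounted for 64.2% of that difference. Without Cd63 the sum was 321 ± 4.29 FPKM in DS38 and 294 ± 6.56 in DMSO, a ratio of 1.09, and the ranges (318 to 326 in DS38 and 287 to 300.1 in DMSO) did not overlap.

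Among the CD-named members of many cell types, Cd63 was at 861, 847 and 821 CPM in DS38 and at 653, 660.0 and 674 CPM in DMSO. The lowest DS38 library was well above the highest DMSO library, and the log2 fold change was 0.35 ± 0.028 (SE). Cd151, which binds laminin-receptor integrins, was at 35.5, 33.5 and 31.7 CPM in DS38 and 29.6, 29.2 and 30.5 in DMSO (log2 fold change 0.18 ± 0.046). The groups did not overlap, but DS38 replicate 3 came close to the DMSO libraries. Cd81 was at 143, 141 and 139 CPM in DS38 and 135, 129 and 138 in DMSO, a log2 fold change of 0.074 ± 0.031 that was not past the threshold. Cd9 was at 95.2, 93.2 and 96.0 CPM in DS38 and 92.4, 90.1 and 93.9 in DMSO (log2 fold change 0.043 ± 0.031). Its groups overlapped, and it was not past the threshold. Cd82, known as a suppressor of metastasis, held 76 counts in all libraries together.

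**Figure D2:**
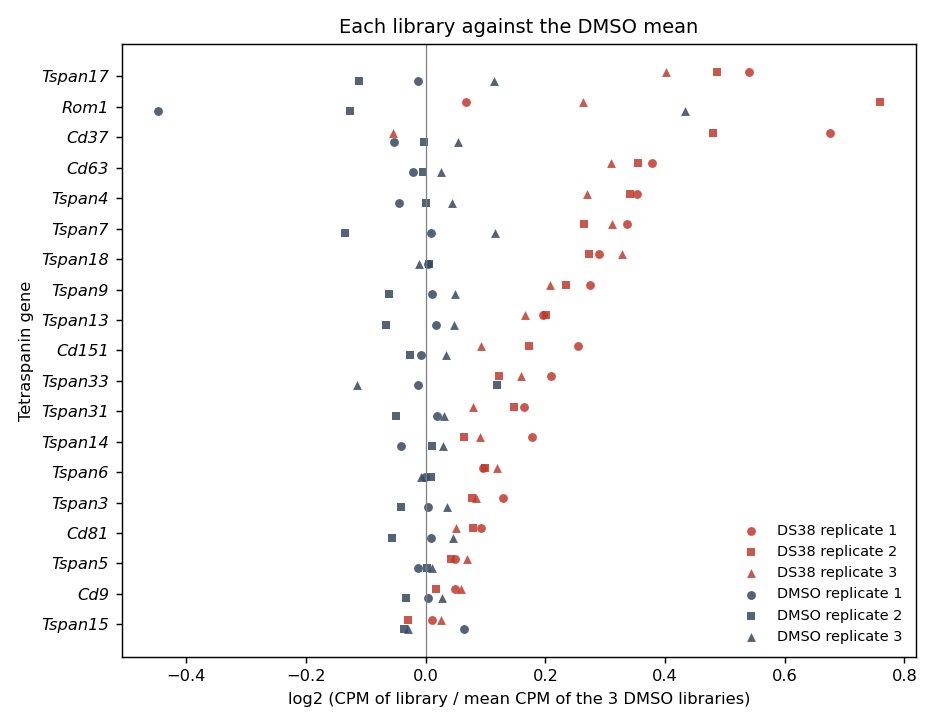
Log2 ratio of each library to the mean of the DMSO libraries, for the 19 tetraspanin genes with a mean of at least 1 CPM in a group, ordered by fitted fold change; red symbols are DS38 libraries, blue-grey symbols DMSO libraries, and shapes mark replicate numbers. The groups overlap for Rom1, Cd37, Cd9 and Tspan15 and lie apart for the other 15 genes.

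The TspanC8 subfamily carries ADAM10 out of the endoplasmic reticulum. Tspan17 had the largest fold change among the members past the threshold, at 18.6, 17.9 and 16.9 CPM in DS38 and 12.7, 11.8 and 13.9 in DMSO (log2 fold change 0.48 ± 0.063 SE). No DS38 library came near the DMSO range. Tspan14 was at 56.8, 52.5 and 53.5 CPM in DS38 and 48.8, 50.6 and 51.2 in DMSO (log2 fold change 0.11 ± 0.038), apart but by little. Tspan5 was at 95.0, 94.5 and 96.2 CPM in DS38 and 91.0, 91.9 and 92.4 in DMSO. Its log2 fold change of 0.054 ± 0.030 was not past the threshold although the groups lay apart. Tspan33, known from red cell precursors and activated B cells, was at 7.57, 7.12 and 7.31 CPM in DS38 and 6.49, 7.11 and 6.05 in DMSO (log2 fold change 0.16 ± 0.082, not past the threshold). Tspan15 was at 13.4, 13.0 and 13.5 CPM in DS38 and 13.9, 12.9 and 13.0 in DMSO, with groups that overlapped and a log2 fold change of 0.0020 ± 0.059. Tspan10, known from pigment cells, had 8 counts in all. The summed level of the subfamily was 47.2 ± 1.27 FPKM in DS38 and 42.0 ± 0.854 in DMSO.

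Tspan7, an X-linked neuronal tetraspanin that binds the AMPA receptor scaffold PICK1, was at 38.0, 36.2 and 37.4 CPM in DS38 and 30.3, 27.4 and 32.6 in DMSO (log2 fold change 0.31 ± 0.050 SE). The DMSO libraries were spread more widely, with a coefficient of variation of 2.54% in DS38 and 8.68% in DMSO, yet did not reach the DS38 range. Tspan3, which partners claudin-11 in oligodendrocytes, was at 184, 178 and 179 CPM in DS38 and 169, 164 and 173 in DMSO (log2 fold change 0.098 ± 0.030). Here the groups lay apart by a margin smaller than the spread within DMSO. Tspan2, an oligodendrocyte gene, had 12 counts in all.

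The other Tspan-named members include 6 past the threshold. Tspan18, which regulates the calcium channel Orai1 in endothelial cells, was at 91.8, 90.8 and 94.3 CPM in DS38 and 75.3, 75.4 and 74.6 in DMSO (log2 fold change 0.30 ± 0.031 SE). Both groups were tight and far apart. Tspan4, a marker and organizer of migrasomes, was at 15.5, 15.4 and 14.7 CPM in DS38 and 11.8, 12.2 and 12.5 in DMSO (log2 fold change 0.32 ± 0.059). Tspan9, a platelet tetraspanin, was at 85.3, 83.0 and 81.5 CPM in DS38 and 71.1, 67.6 and 73.0 in DMSO (log2 fold change 0.24 ± 0.035). Neither gene's groups overlapped. Tspan13, which modulates a neuronal calcium channel, was at 32.6, 32.7 and 31.9 CPM in DS38 and 28.8, 27.2 and 29.4 in DMSO (log2 fold change 0.19 ± 0.043). Tspan31, known for its amplification in sarcoma, was at 70.8, 70.0 and 66.7 CPM in DS38 and 64.0, 61.0 and 64.5 in DMSO (log2 fold change 0.13 ± 0.035). Tspan6 was at 77.8, 78.0 and 79.1 CPM in DS38 and 72.8, 73.3 and 72.5 in DMSO (log2 fold change 0.10 ± 0.031). The groups of these genes lay apart too, by least for Tspan31, whose lowest DS38 library was close to its highest DMSO library.

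**Figure D3:**
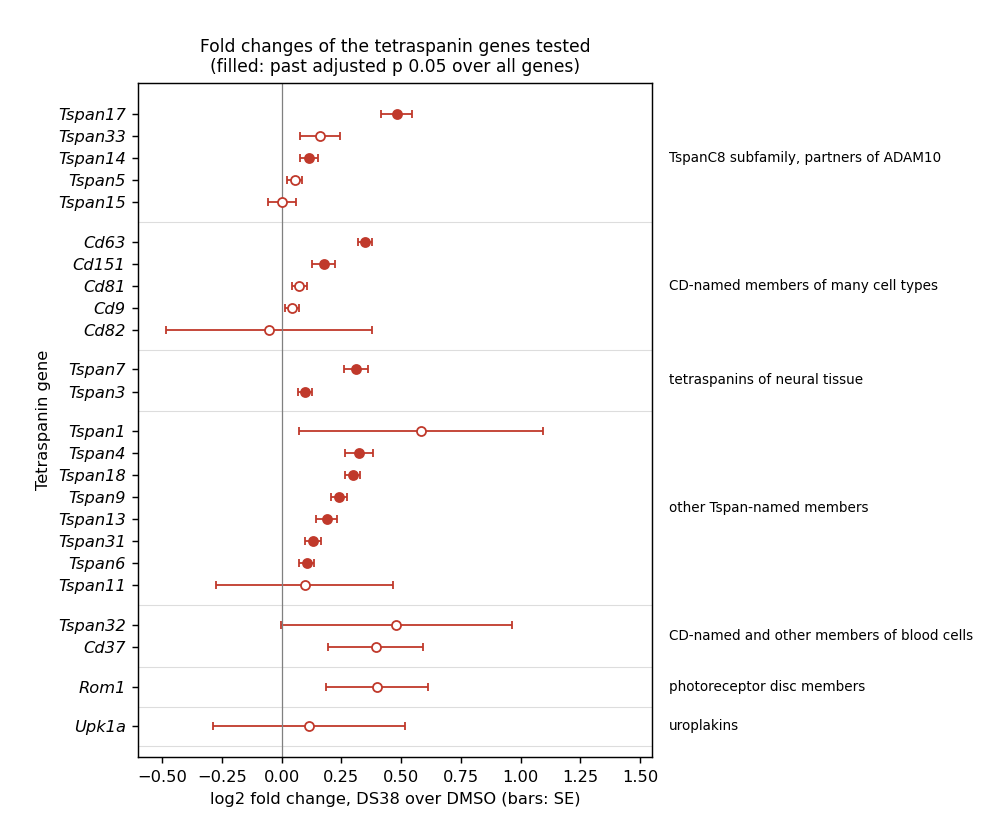
Fold changes (log2, DS38 over DMSO; bars are standard errors) for the 24 tetraspanin genes tested, grouped by role; filled points were past the threshold. Of these 24 genes, 12 are filled and all 12 lie above 0, from 0.098 for Tspan3 to 0.48 for Tspan17, while the genes with wide bars are those of few counts.

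Several other members known from other tissues were low or barely detected. The photoreceptor disc gene Rom1 was at 1.40, 2.27 and 1.61 CPM in DS38 and 0.982, 1.23 and 1.81 in DMSO, and its partner Prph2 had 33 counts in all. Cd37, a B cell gene, was at 1.83, 1.60 and 1.10 CPM in DS38 and 1.10, 1.14 and 1.19 in DMSO. Rom1 and Cd37 overlapped between groups and were not past the threshold (log2 fold changes 0.40 ± 0.21 and 0.39 ± 0.20). Cd53 and Tspan32, also of blood cells, had 3 and 73 counts in all. Of the blood cell markers Itgam and Cd3e were at 0 in every library, while Aif1, Ptprc, Csf1r, P2ry12 and Cx3cr1 had 32, 11, 11, 6 and 1 counts in all. The uroplakins Upk1a and Upk1b of the bladder lining had 116 and 1 counts in all, and of 4 urothelium markers Upk3a and Krt5 were at 0 throughout and Krt20 and Upk2 held 2 counts each, with a sum of at most 0.0251 CPM in DS38 and 0.0258 in DMSO. Tspan1 and Tspan8, of epithelia, had 85 and 4 counts, Tspan11 146, and Tspan12, the norrin co-receptor, 37. Of these scarce members the 5 tested were not past the threshold, with log2 fold changes of -0.053 ± 0.43 for Cd82, 0.096 ± 0.37 for Tspan11, 0.11 ± 0.40 for Upk1a, 0.48 ± 0.48 for Tspan32 and 0.58 ± 0.51 for Tspan1 (SE). The members Tspan2, Tspan8, Tspan10, Tspan12, Cd53, Prph2 and Upk1b were not tested. For Tspan1, Tspan32 and Upk1a the filter level was reached in all 3 DS38 libraries but not in all 3 DMSO libraries, so their place among the tested members rests on the DS38 side. Tspan8 and Upk1b had 0 counts in DMSO.

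Of the other marker lists, the sum of 5 fibroblast and pericyte genes lay apart between groups, at 1.84 to 2.17 CPM in DS38 and 1.15 to 1.34 in DMSO. Lum and Col1a1 made up nearly all of it, and Col1a1 alone was past the threshold. Col1a2, Dcn and Pdgfrb were too scarce to test, overlapped between groups and had lower means in DS38, and none of the 5 was at 0 in every library. Their part in the levels of widely expressed tetraspanins such as Cd63, Cd151 and Tspan4 was not tested. The astrocyte list summed to 143 to 149 CPM in DS38 and 144 to 152 in DMSO, almost all from Slc1a3, which was not past the threshold. Gfap rose, at 5.40 ± 0.333 CPM in DS38 and 4.33 ± 0.241 in DMSO (SD, n = 3 each; edgeR adjusted p = 0.0179), and its part in these levels was not tested either. Oligodendrocyte, endothelial and melanocyte lists summed to at most 2.37, 1.18 and 0.570 CPM in DS38 and 2.76, 1.27 and 0.478 in DMSO, led by Olig2 and Mog, Pecam1 and Tek, and Pmel and Mlana.

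To show the sequence before the start of members past the threshold and of a member that was not, windows of 250 bases upstream were taken from RefSeq (GRCm38.p6, a build older than the GRCm39 that the submitters' processing notes name). Cd63, Tspan17, Tspan7 and Tspan31 are examples of members past the threshold, and Tspan15 of a member with a fold change near 0. Each is given 5′ to 3′ on the gene's strand, and capitals mark a match on either strand to the GC box GGGCGG, the CCAAT box, the E-box CACGTG, the TATA box TATAAA or the C/EBP-ATF composite TGATGNAA.
Cd63, chr10:128909095-128909344, plus strand: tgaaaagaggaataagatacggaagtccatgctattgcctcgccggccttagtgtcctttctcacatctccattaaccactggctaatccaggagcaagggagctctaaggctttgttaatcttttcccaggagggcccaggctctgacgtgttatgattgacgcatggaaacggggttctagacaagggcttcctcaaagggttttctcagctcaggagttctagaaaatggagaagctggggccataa
Tspan17, chr13:54789155-54789404, plus strand: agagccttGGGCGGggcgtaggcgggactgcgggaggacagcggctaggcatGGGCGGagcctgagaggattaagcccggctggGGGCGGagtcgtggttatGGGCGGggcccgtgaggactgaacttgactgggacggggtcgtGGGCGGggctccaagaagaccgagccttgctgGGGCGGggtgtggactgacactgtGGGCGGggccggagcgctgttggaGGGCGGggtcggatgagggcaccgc
Tspan7, chrX:10484866-10485115, plus strand: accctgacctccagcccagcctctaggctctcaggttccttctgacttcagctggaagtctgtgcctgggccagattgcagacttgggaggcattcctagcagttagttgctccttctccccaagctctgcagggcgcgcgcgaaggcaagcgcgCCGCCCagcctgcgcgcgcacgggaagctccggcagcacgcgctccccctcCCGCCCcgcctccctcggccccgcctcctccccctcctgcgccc
Tspan31, chr10:127070262-127070511, minus strand: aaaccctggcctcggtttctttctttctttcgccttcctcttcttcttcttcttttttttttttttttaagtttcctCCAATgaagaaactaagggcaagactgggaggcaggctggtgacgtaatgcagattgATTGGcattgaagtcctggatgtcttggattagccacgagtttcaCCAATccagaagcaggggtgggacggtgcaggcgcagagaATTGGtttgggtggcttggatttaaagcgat
Tspan15, chr10:62231219-62231468, minus strand: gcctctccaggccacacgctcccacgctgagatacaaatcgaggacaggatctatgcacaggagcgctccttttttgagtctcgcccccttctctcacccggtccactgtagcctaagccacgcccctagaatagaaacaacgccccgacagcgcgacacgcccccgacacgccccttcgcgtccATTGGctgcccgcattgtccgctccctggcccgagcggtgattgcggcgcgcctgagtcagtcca
In the window of Tspan17 the GC box occurred 8 times, and in that of Tspan31 the CCAAT box occurred 4 times. Each count was the highest of any member window, so these windows are not typical. Of others past the threshold, Tspan6 had no match and Tspan3 had 1 CCAAT box alone. Tspan7 had 2 GC boxes, Tspan15 had 1 CCAAT box, and Cd63 had no match to any of these letters. RefSeq windows were found for 29 of the 31 members, all but Tspan18 and Upk1b. Of the 18 members with a window and at least 1 CPM in a group, 13 had a GC box in at least 1 window, against 35.4% of 27025 genes, and 6 had a CCAAT box, against 37.5%. Those 27025 genes include silent ones, so the shares also differ in expression. Of all 29 members with a window, silent or not, 15 had a GC box and 10 a CCAAT box. The E-box was found in 2 of the 18 (Tspan4 and Cd37), against 6.9% of genes, and neither the TATA box nor the composite in any, against 14.3% and 3.9%. Of the 11 members past the threshold with a window, 7 had a GC box and 4 a CCAAT box, against 35.4% and 37.5% of genes. Among members of at least 1 CPM not past it, Cd9, Cd37, Cd81, Rom1, Tspan5 and Tspan33 had a GC box, and Tspan15 had none. Member windows had a median GC content of 57.6%, against 52.4% over all windows, which include silent genes. The bases just after the start used for Tspan7 were not found in a GENCODE M21 transcript of that gene, unlike those of the other 4 shown. A match is a description of letters and not a site.

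Genes known to act with tetraspanins were listed from general knowledge of the family. Of 68 such genes 60 were tested, and 19 rose and 9 fell, with a median log2 fold change of 0.037, against 12.9% and 11.7% of all genes and a median of 0.0036. Of the ADAM proteases and ADAM10 substrates, 2 rose and 3 fell of 9. Adam10 itself fell to 144 ± 1.69 CPM in DS38, against 158 ± 3.72 in DMSO (SD, n = 3 each; log2 fold change -0.14 ± 0.029 SE; edgeR adjusted p = 0.00131), while Tspan17 and Tspan14, which carry it, were higher. Of its substrates, N-cadherin (Cdh2) was at 202 ± 1.10 CPM in DS38 and 238 ± 8.95 in DMSO (edgeR adjusted p = 4.20e-06). Notch2 was at 122 ± 1.81 CPM in DS38 and 144 ± 9.31 in DMSO (edgeR adjusted p = 4.51e-05). Prnp, the prion protein, rose, at 43.3 ± 2.43 CPM in DS38 and 36.6 ± 2.12 in DMSO (edgeR adjusted p = 7.05e-04). The scarce Notch3 rose as well (2.16 ± 0.334 CPM in DS38 and 1.45 ± 0.272 in DMSO; edgeR adjusted p = 0.0141), a call lost without DMSO replicate 1 (adjusted p = 0.0931), DS38 replicate 1 (0.0806) or DS38 replicate 3 (0.0527), with a range of 0.00364 to 0.0931 over its alternatives.

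Of 9 integrin subunits tested, 4 rose and 0 fell in the main edgeR fit, against 12.9% and 11.7% of all genes tested. At an unadjusted p under 0.05 1 was lower, and 1 by DESeq2 and by limma-voom, in each case Itgb1. Itga7, a laminin-binding subunit, rose to 122 ± 5.69 CPM in DS38, against 92.0 ± 2.98 in DMSO (SD, n = 3 each; log2 fold change 0.41 ± 0.035 SE; edgeR adjusted p = 3.73e-08). Itga6, a laminin-binding partner of Cd151, was at 13.0 ± 0.564 CPM in DS38 and 10.3 ± 0.362 in DMSO (edgeR adjusted p = 6.60e-04). Itgb5 and the scarce Itga5 rose by 0.37 ± 0.084 and 0.86 ± 0.22 on the log2 scale. Itga3, the best known partner of Cd151, was at 3.38 ± 0.304 CPM in DS38 and 3.02 ± 0.367 in DMSO and was not past the threshold (edgeR adjusted p = 0.399). The common beta subunit Itgb1 was at 396 ± 4.63 CPM in DS38 and 415 ± 4.47 in DMSO (log2 fold change -0.069 ± 0.027; edgeR adjusted p = 0.0679). It was past the threshold and lower in 7 of 17 alternatives. These were without DMSO replicate 3 (adjusted p = 0.0222) and with DESeq2 (0.0218), limma-voom (0.0389), RLE scaling (0.0487) or the filter of 5 CPM (0.0342). The others were the gene length correction (0.00293) and protein-coding genes alone (0.0209). Its adjusted p over all alternatives ran from 0.00293 to 0.347.

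Of 9 immunoglobulin-domain and receptor genes tested, 4 rose and 1 fell, against 12.9% and 11.7% of all genes tested. Igsf8 and Ptgfrn encode the immunoglobulin-domain proteins that bind Cd9 and Cd81 directly. Igsf8 was at 72.1 ± 2.11 CPM in DS38 and 65.2 ± 3.13 in DMSO (SD, n = 3 each; log2 fold change 0.15 ± 0.037 SE; edgeR adjusted p = 0.00563). Ptgfrn was at 283 ± 5.30 CPM in DS38 and 264 ± 7.91 in DMSO (log2 fold change 0.10 ± 0.029; edgeR adjusted p = 0.0144). The hyaluronan receptor Cd44 rose by 0.25 ± 0.037 on the log2 scale, and the transferrin receptor Tfrc by 0.085 ± 0.028. Egfr, the epidermal growth factor receptor, fell by 0.33 ± 0.039 (edgeR adjusted p = 2.76e-06). Without DMSO replicate 2, Igsf8 (adjusted p = 0.0561), Ptgfrn (0.104) and Tfrc (0.0739) were not past the threshold. Ptgfrn was also lost without DS38 replicate 1 (0.0845) or 2 (0.0700), and Tfrc without DMSO replicate 3 (0.0598), DS38 replicate 1 (0.182), 2 (0.0519) or 3 (0.0713). Tfrc was lost as well with RLE scaling (0.0559), the replicate block (0.0595), the gene length correction (0.129) and protein-coding genes alone (0.0559). Over all alternatives the adjusted p ran from 2.85e-04 to 0.0561 for Igsf8, from 8.28e-04 to 0.104 for Ptgfrn and from 0.00167 to 0.182 for Tfrc.

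Of 17 genes of vesicle formation tested, 4 rose and 1 fell, where 24.5% of all genes tested passed in either direction. On the log2 scale the flotillins of membrane microdomains, Flot2 and Flot1, rose by 0.29 ± 0.042 and 0.21 ± 0.051 (± SE, with edgeR adjusted p = 2.40e-05 and 0.00389). The ESCRT gene Stam2 and the late endosome GTPase Rab7 rose by 0.13 ± 0.032 and 0.12 ± 0.030 (edgeR adjusted p = 0.00502 and 0.00634). Rab7 was not past the threshold without DMSO replicate 2 (adjusted p = 0.0680) or with the gene length correction (0.0546), with a range of 4.89e-04 to 0.0680 over its alternatives. The syndecan Sdc3, a cell-surface proteoglycan, fell by 0.22 ± 0.035. Sdcbp, the syntenin that binds Cd63, was at 127 ± 3.46 CPM in DS38 and 129 ± 3.30 in DMSO (SD, n = 3 each), and Pdcd6ip (ALIX) at 138 ± 2.76 in DS38 and 142 ± 2.20 in DMSO, neither past the threshold. Timp1, a ligand of Cd63, had 36 counts in all.

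Of the norrin and frizzled genes, whose co-receptor Tspan12 was barely detected, the ligand Ndp fell to 6.38 ± 0.466 CPM in DS38, against 9.32 ± 0.663 in DMSO (SD, n = 3 each; edgeR adjusted p = 4.95e-05). The Wnt co-receptor Lrp6 fell by 0.15 ± 0.033 on the log2 scale, and the norrin receptor Fzd4 rose by 0.86 ± 0.24 (SE) at 1.21 ± 0.318 CPM in DS38 and 0.670 ± 0.105 in DMSO, though not without DS38 replicate 3 (edgeR adjusted p = 0.0716, range over alternatives 0.00138 to 0.0716). The AMPA receptor genes Gria2 and Gria3 fell by 0.48 ± 0.040 and 0.18 ± 0.044 (edgeR adjusted p = 2.25e-08 and 0.00472). Pick1, the scaffold that Tspan7 binds, was not past the threshold (log2 fold change 0.17 ± 0.11). Of 8 palmitoyltransferase and kinase genes, 4 rose and 0 fell in the main edgeR fit, against 12.9% and 11.7% of all genes tested. Prkcd, Zdhhc4, Pi4k2a and Zdhhc6 rose by 0.48 ± 0.089, 0.22 ± 0.044, 0.15 ± 0.035 and 0.12 ± 0.030. By DESeq2 or limma-voom 0 fell, while 2 (Prkca and Zdhhc2) were lower at an unadjusted p under 0.05. Zdhhc2, which palmitoylates Cd9 and Cd151, had a log2 fold change of -0.12 ± 0.046 and was not past the threshold (edgeR adjusted p = 0.0572). It was past the threshold and lower in 5 of 17 alternatives: without DMSO replicate 3 (adjusted p = 0.0146) and with RLE scaling, the filter of 5 CPM, the length correction or protein-coding genes alone, with a range of 0.0146 to 0.221 over all of them. Prkca was past it and lower in 4 of 17, without DMSO replicate 3 (adjusted p = 0.0178) and with RLE scaling, the filter of 5 CPM or protein-coding genes alone, with a range of 0.0178 to 0.286.

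**Figure D4:**
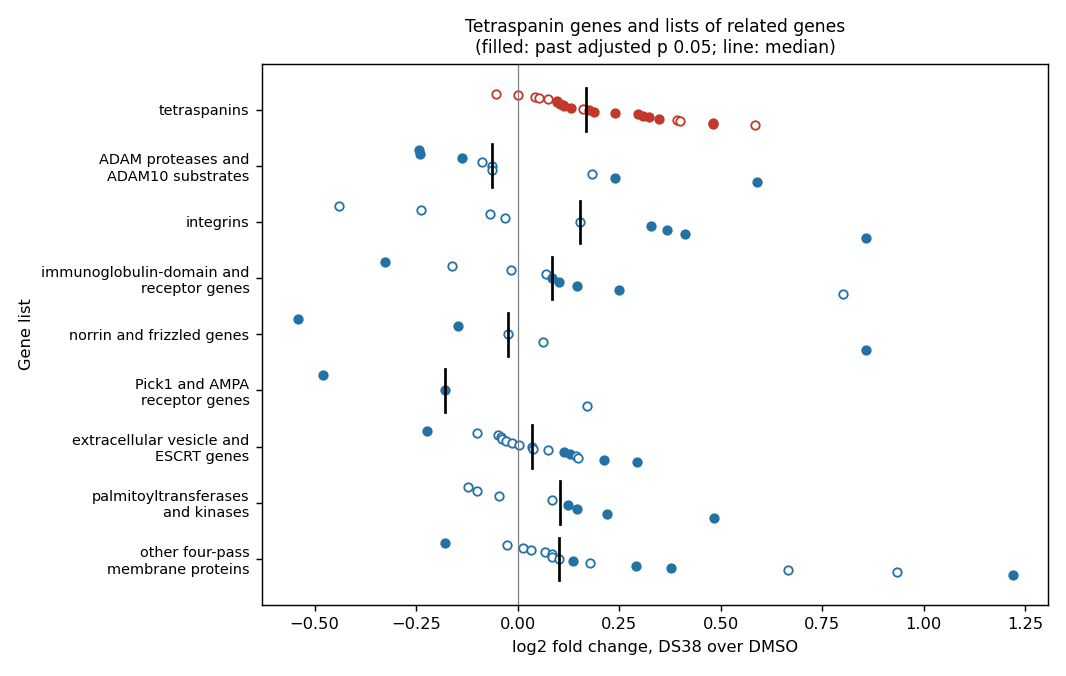
Log2 fold changes of DS38 over DMSO for the 24 tetraspanin genes tested (red) and for lists of related genes (blue); each point is a gene, filled where past the threshold, and the black line is the list's median. The tetraspanin median is 0.17, and that of the ADAM protease and substrate list is -0.063.

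Exon overlap limits some member values, since the strand setting of the counting is not given in the sources used here. In GENCODE M21, 29.2% of the exon bases of Tspan31 are shared with Cdk4 on the opposite strand, which held 148256 counts in all libraries together, against 24188 for Tspan31, and had a log2 fold change of 0.065. Tspan4 shares 13.4% of its exon bases with Chid1 on the opposite strand, whose log2 fold change was 0.36, close to the 0.32 of Tspan4. Chid1 held 5956 counts in all libraries together, against 5080 for Tspan4. Cd9, Cd151 and Cd81 share 10.7%, 7.0% and 3.6% with non-coding genes on the opposite strand. The scarce Cd37, with 493 counts in all, shares 0.4% with Tead2 on the opposite strand, which held 106269. Tspan32, with 73 counts in all, shares 4.3% with the antisense Tspan32os, which held 293 and had a log2 fold change of 0.51. Whether reads of these overlaps were kept apart by strand, dropped or counted for a member is not known. In bulk samples, fewer cells and less RNA per cell cannot be told apart.

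With all 17 alternative settings, 7 members stayed past the threshold and higher: Cd63, Tspan4, Tspan7, Tspan9, Tspan13, Tspan17 and Tspan18. Tspan14 was not past it without DMSO replicate 1 (log2 fold change 0.094), DMSO replicate 2 (0.12), DS38 replicate 1 (0.080) or DS38 replicate 3 (0.13), nor with DESeq2, thinning, the replicate block or the gene length correction. That correction also took Tspan3 (0.057), Tspan6 (0.078) and Tspan31 (0.10) below the call. Tspan3 and Tspan31 were not without DMSO replicate 2 (0.077 and 0.11) or DS38 replicate 1 (0.082 and 0.11), Cd151 not without DS38 replicate 1 (0.13), and Tspan6 not without DS38 replicate 3 (0.098). Tspan5 and Cd81 passed with library size alone (0.088 and 0.11). Cd81 and Rom1 passed without DMSO replicate 3 (0.093 and 0.65) and Cd37 without DS38 replicate 3 (0.59).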

How the data were processed

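Read counts per gene, in whole numbers, were deposited by the authors for 6 libraries in 1 table; its header names a Length column, taken as bases (per the file headers). Per the submitters' processing notes, which give no roles, the builds were GRCm39 and GRCh38.p13 and the tools edgeR, R 4.1.0, Subread 2.0.3 with featureCounts, and STAR 2.7.9a. How strand and shared reads were handled is not given in the sources used here.

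Symbols came from GENCODE M21 (52083 of 55416 identifiers; the rest held 0.345% of counts). Fits were made with edgeR 4.0.16, DESeq2 1.42.0 and limma 3.58.1 under R 4.3.3, and figures with matplotlib 3.10.9 under Python 3.11.15. Low genes were dropped by filterByExpr (minimum count 10, minimum total 15), and the 17679 left were scaled by TMM and fitted with edgeR's two-sided quasi-likelihood test, group alone, at an adjusted p of 0.05 (Benjamini-Hochberg, across every gene kept). The SE of a log2 fold change is its size over the square root of F. The fit was tested on simulated data. Per-library CPM are given for members of at least 1 CPM in a group, and related genes are named by smallest adjusted p (at most 4 a direction and list) plus Adam10, Igsf8, Ptgfrn, Itga3, Itga6 and Itgb1. Other genes named beside a member were chosen after their values were seen. Summed levels of the photoreceptor and blood cell marker lists are not reported here. The members and lists were chosen with earlier results of these data known. Counting error alone allows up to 0.00831 CPM for 0 counts in all libraries (3 counts of their summed total). Within groups, each pair of libraries differed by at least 2.79 times its chi-square degrees of freedom, so none was counted as a repeat. On this measure DS38 pairs stood at 2.79 to 3.37 and DMSO pairs at 7.82 to 8.76. Against the DS38 libraries, DMSO replicate 3 stood at 9.77 to 11.7, and DMSO replicates 1 and 2 at 21.8 to 26. Without DMSO replicate 3, 2437 genes were higher and 2474 lower, against 2272 and 2068 with all libraries. The cause was not tested. Alternatives were DESeq2, limma-voom, RLE scaling, library size alone, no filter, a filter of 5 CPM in 3 libraries, the replicate block, robust dispersion, thinning and each library left out. After seeing the data, 2 more were added: a correction for gene length, and a fit of protein-coding genes only.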

Additional observations from a re-analysis of the deposited data

How the results depend on the processing

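The count of members past the threshold and higher, 12, was 14 with library size alone, 11 with DESeq2, thinning or the replicate block, 8 with the gene length correction and 8 to 14 with 1 library left out; none was lower under any of the 17 alternatives. The members' median log2 fold change of 0.17 was 0.20 when scaled by library size alone, 0.13 after the length correction, and 0.16 to 0.20 with 1 library left out; the cause was not tested. The median over all genes was 0.038 with library size alone. With CPM in place of FPKM, 6 of 24 members kept their rank. Among all genes, 2108 were higher and 1902 lower with the replicate block. Same-numbered libraries deviated with correlations of 0.0349, -0.0108 and -0.0266, so the numbers were not taken to pair them. Of 1645 values of 99 tested members and related genes under the alternatives, 41 were no longer past the threshold, 34 newly passed and 0 calls reversed in direction. The sign did change for some genes not past the threshold. Log2 fold changes over the alternatives ran from -0.018 to 0.037 for Tspan15 and from -0.36 to 0.33 for Cd82. They ran from -0.35 to 0.35 for Tspan11 and from -0.21 to 0.40 for Upk1a. Depth limits the 12 members under 1 CPM: the 5 of them tested had standard errors of 0.37 or more.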

Other observations

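Other membrane proteins of like topology but unrelated sequence were also listed. Of 34 such genes 15 were tested, and 4 rose and 1 fell, with a median log2 fold change of 0.10, against 12.9% higher, 11.7% lower and a median of 0.0036 over all genes tested. Among the 15, 13 had a log2 fold change above 0, against 50.8% of all genes, so a lean upward was not particular to tetraspanins. In 8 every DS38 library lay above every DMSO library, against 20.7%, and in 1 below, against 17.9%. The lysosomal genes Laptm4b and Laptm4a rose to 92.4 ± 0.884 and 176 ± 2.22 CPM in DS38, against 75.5 ± 1.45 and 160.5 ± 5.38 in DMSO (SD, n = 3 each; edgeR adjusted p = 5.44e-07 and 0.00194). The myelin gene Pmp22 was at 11.4 ± 0.210 CPM in DS38 and 8.78 ± 0.989 in DMSO (edgeR adjusted p = 8.28e-04). The neuronal and glial Gpm6b fell to 428 ± 5.33 CPM in DS38, against 484 ± 13.7 in DMSO (edgeR adjusted p = 8.98e-05). Cldn15, at 0.450 ± 0.115 CPM in DS38 and 0.194 ± 0.0444 in DMSO, was past the threshold (edgeR adjusted p = 0.0196). It was not without DMSO replicate 1 (0.0531), DMSO replicate 2 (0.0981), DS38 replicate 2 (0.0580) or DS38 replicate 3 (0.106), nor with thinning (0.0717). The range over its alternatives was 0.0140 to 0.106. The claudins Cldn3 and Cldn5 had 0 counts in every library, which allows up to 0.00831 CPM.

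Tetraspanin genes that neighbour each other in GENCODE M21 differed widely in level per length. Tspan9 was at 16.7 ± 0.390 FPKM in DS38 and 14.2 ± 0.545 in DMSO, and its neighbour Tspan11 on chromosome 6 at 0.0814 ± 0.0413 in DS38 and 0.0753 ± 0.0234 in DMSO (SD, n = 3 each). On chromosome 2, Tspan18 was at 11.3 ± 0.221 FPKM in DS38 and 9.19 ± 0.0581 in DMSO, and its neighbour Cd82 at 0.0695 ± 0.00967 in DS38 and 0.0739 ± 0.0357 in DMSO. On chromosome 7, Cd81 was at 49.0 ± 0.704 FPKM in DS38 and 46.5 ± 1.68 in DMSO, and its neighbour Tspan32 at 0.0357 ± 0.00379 in DS38 and 0.0245 ± 0.0178 in DMSO.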
